A study of Homo sapiens with 6 samples.

Results

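Heat shock proteins and the cochaperones of HSP90 were followed in *RAB30-DT* knockdown cells. They were the protein-coding genes whose symbol begins with HSPA, HSPB, HSPD, HSPE, HSPH, HSP90, DNAJA or DNAJB, with *HSF1*, *HSF2*, *PTGES3*, *AHSA1*, *STIP1*, *CDC37*, *FKBP4*, *FKBP5* and *BAG3* added by name. This gave 56 of the 20046 protein-coding genes measured, among 62700 genes in all. RNA–Seq was performed on 6 libraries of SK-Hep1, a human line derived from a liver tumor, 3 labelled control shRNA and 3 labelled *RAB30-DT* shRNA, and each gene was given as TPM, its share of transcripts corrected for length and scaled to a fixed total per library. The vectors were stably integrated under selection, and for the control libraries the genotype field reads WT although the titles point to a control vector. All knockdown libraries carry 1 label, so an effect of a single shRNA and one of losing the transcript cannot be told apart.

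Cells keep proteins folded with several chaperone families. HSP70 binds unfolded stretches, HSP40 (DnaJ) proteins deliver clients and trigger its ATPase, and HSP110 proteins exchange its nucleotide. HSP90 finishes the folding of kinases and steroid receptors, aided by cochaperones that load clients, tune its ATPase or hold its closed form, while HSPD1 and HSPE1 form the folding chamber of mitochondria. Under heat or proteotoxic stress HSF1 switches many of these genes on together, whereas those of the endoplasmic reticulum (ER) respond to the unfolded protein response.

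Of the 56 genes, 44 reached a mean of 1 TPM over the 6 libraries and were tested. The other 12 did not, and 5 of these, *HSPB2*, *HSPB3*, *HSPB7*, *HSPB8* and the readthrough gene *HSPB2-C11orf52*, were listed at 0 in every library. The members took 0.799% to 1.13% of all TPM. *RAB30-DT*, the targeted transcript, was at 18.2, 11.5 and 13.9 TPM in the control libraries and at 11.9, 10.8 and 6.5 TPM in the knockdown libraries, so the groups overlapped. Its log2 fold change was -0.55 (SE 0.27, limma adjusted p = 0.355) and ran from -0.70 to -0.24 over 17 alternative analyses. It was called in 0 of them, so a loss of the target was not detected in these libraries. The paper reports the knockdown efficiency in SK-Hep-1 cells by qPCR, which was not used here. Of 12 hepatocyte markers 2 reached 1 TPM (*SERPINA1* and *CPS1*) and 7 were at 0 in all libraries, with a summed level of 19.2 to 29.0 TPM in control and 30.6 to 41.2 TPM in knockdown. Of 10 endothelial markers 0 reached 1 TPM, with sums of 0.73 to 3.63 TPM in control and 1.17 to 2.42 TPM in knockdown. Of 8 mesenchymal markers 7 did, and the list summed to 3918 to 4181 TPM in control and 4464 to 4909 TPM in knockdown. *VIM*, which made up most of it, was higher without overlap (log2 fold change 0.25, limma adjusted p = 0.225), whereas *THY1* (-0.54), *PDGFRB* (-1.22) and *TAGLN* (-0.93) were lower without overlap, with 0 of the list called and 4 at an unadjusted p under 0.05. The part of these lists in the members' values was not tested. Of 5 leukocyte markers *CD68* alone did, with a sum over the list of 28.4 to 66.8 TPM in control and 107 to 129 TPM in knockdown.

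Across the tested members, 2 fell in the knockdown, *PTGES3* and *DNAJB11*, and 0 rose at an adjusted p under 0.05 (limma over 14020 genes). The background was 0.371% of all genes called higher and 0.67% called lower. At an unadjusted p under 0.05 there were 2 members higher and 13 lower, beside 7.06% and 9.7% of all genes (16.8% in either direction). The median log2 fold change was -0.28 over the members and -0.04 over all genes tested, and 35 of 44 members (79.5%) were below 0, as were 53.7% of all genes. Over the 11727 protein-coding genes tested, the nearer background, the median was -0.06 and 56.8% were below 0. Control and knockdown libraries did not overlap for 14 members that were lower and 2 that were higher, where 13.4% of all genes were lower and 9.89% higher in this way. Of the 11727 protein-coding genes, 1738 were lower and 1061 higher without overlap. With 1 library fewer, 0 members were called without control replicate 2 or any 1 of the knockdown replicates, where the genes called among all fell from 146 to between 12 and 18, while 2 were called without control replicate 3 and 5 without control replicate 1. The log2 fold changes moved little, from -1.71 to -1.34 for *PTGES3* and from -1.23 to -1.06 for *DNAJB11* over 17 alternatives. With the trend of each library on GC content removed, 10 members were called lower and 2 higher, beside 5.29% and 2.99% of all genes.

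**Figure D1:**
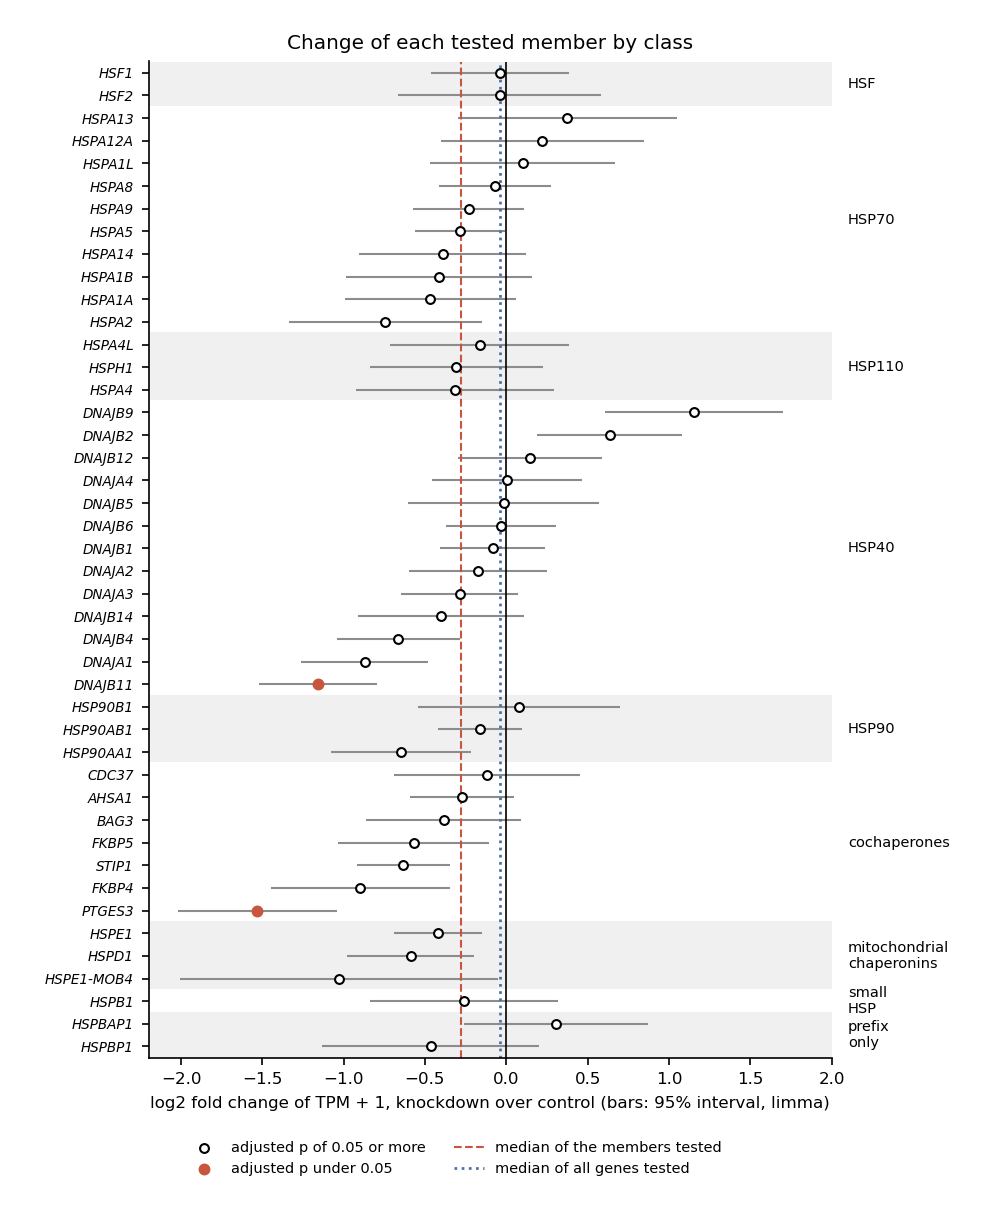
Log2 fold change of TPM + 1 (knockdown over control) for the 44 tested members, by class, with the 95% interval of limma. *PTGES3* at -1.53 and *DNAJB11* at -1.16 are filled (adjusted p under 0.05), and the dashed and dotted lines stand at the median of the members (-0.28) and of all genes tested (-0.04).

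Among the classes with more than 3 tested members, the cochaperones (those of HSP90, with *BAG3*) had the lowest median. Their median log2 fold change was -0.57, beside -0.59 for the 3 mitochondrial chaperonin genes. All 7 cochaperones were below 0, as were 53.7% of all genes and 56.8% of the protein-coding genes tested. Of the 7, 5 were lower without overlap between the groups, beside 13.4% of all genes. With quantile normalization, without control replicate 3 and without knockdown replicate 1, 6 of 7 were below 0, with *CDC37* above it. *PTGES3*, the p23 cochaperone that holds HSP90 in its closed, client-bound form, was at 567, 441 and 344 TPM in control and at 184, 143 and 134 TPM in knockdown. The lowest control library was above the highest knockdown library. *PTGES3* fell by 1.53 on the log2 scale (SE 0.21, limma adjusted p = 0.026), and its pseudogenes summed to at most 1.24% of its TPM in a library. *FKBP4* (FKBP52), an immunophilin of steroid receptor complexes, was at 41.0, 53.1 and 70.5 TPM in control and at 22.9, 31.0 and 31.9 TPM in knockdown, without overlap. Its log2 fold change was -0.90 (SE 0.24, limma adjusted p = 0.121).

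*STIP1* (HOP), the adaptor that passes clients from HSP70 to HSP90, was among the tightest. It was at 361, 328 and 334 TPM in control and at 226, 219 and 214 TPM in knockdown, a log2 fold change of -0.63 (SE 0.12, limma adjusted p = 0.062). *FKBP5* (FKBP51), the glucocorticoid-inducible counterpart of *FKBP4*, had a log2 fold change of -0.57 (adjusted p = 0.216), also without overlap. Of 7 tested glucocorticoid-induced genes 0 were called (limma, with 1 at an unadjusted p under 0.05), with a median of 0.34. They did not move together: 4 were above 0 and 3 below, from -1.19 for *PER1* to 0.79 for *SGK1*. For both genes control replicate 3 stood apart. *PER1* was at 12.1, 14.2 and 72.3 TPM in control and *SGK1* at 89.0, 75.4 and 305 TPM. *AHSA1*, which stimulates the ATPase of HSP90, was at -0.27 on the log2 scale (adjusted p = 0.369) and did not overlap. *BAG3*, an HSP70 nucleotide exchange factor tied to autophagy, was at -0.38 (adjusted p = 0.394) and *CDC37*, which recruits kinases, at -0.12 (adjusted p = 0.851), and both overlapped. Summed over the class, TPM were 1221 ± 65.1 in control and 717 ± 4.48 in knockdown (SD, n = 3).

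Of the 3 HSP90 genes 1 was lower without overlap between the groups, beside 13.4% of all genes. *HSP90AB1*, the constitutive cytosolic form, was at 1542, 1436 and 1578 TPM in control and at 1468, 1372 and 1241 TPM in knockdown, and the groups overlapped (log2 fold change -0.16, adjusted p = 0.516). *HSP90AA1*, the inducible cytosolic form, was at 799, 586 and 541 TPM in control and at 479, 390 and 351 TPM in knockdown. These groups did not overlap, with a log2 fold change of -0.65 (SE 0.19, limma adjusted p = 0.146). *HSP90B1* (GRP94), the ER form, was at 0.08 on the log2 scale (adjusted p = 0.912) and turned below 0 when control replicate 3 or knockdown replicate 1 was left out.

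**Figure D2:**
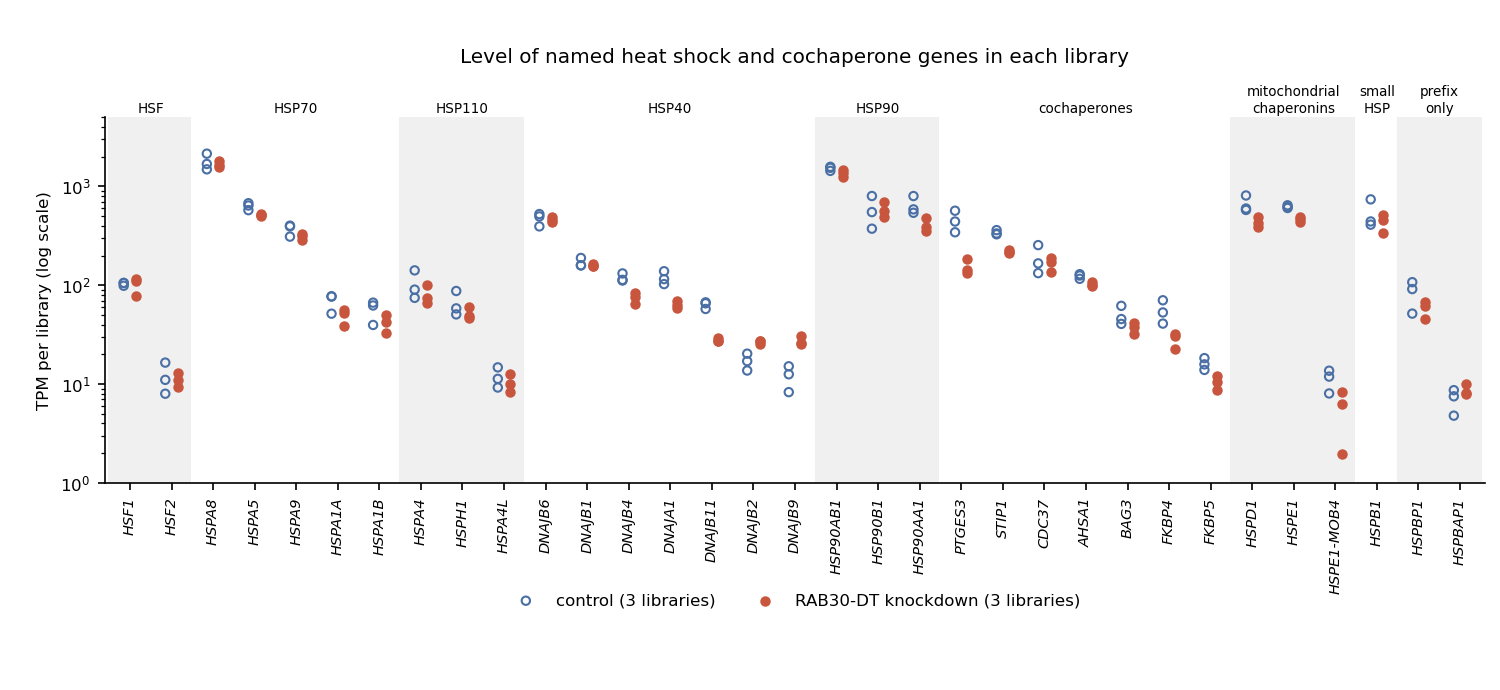
TPM (log axis) of the members named by rule that reached the filter, by class and then by mean level. Open circles are the 3 control libraries and filled circles the 3 knockdown libraries. *PTGES3*, *DNAJB11* and *DNAJA1* are lower without overlap in knockdown, and *DNAJB9* is higher, while *HSPA8* and *HSP90AB1* overlap.

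The HSP40 proteins lay on both sides of 0, with a median log2 fold change of -0.08 over 13 tested. *DNAJB11* (ERdj3), an ER cochaperone of BiP that binds unfolded clients, was at 65.7, 67.2 and 57.6 TPM in control and at 29.1, 27.4 and 27.1 TPM in knockdown. The groups did not overlap, and the gene fell by 1.16 on the log2 scale (SE 0.16, limma adjusted p = 0.025). *DNAJB9* (ERdj4), another BiP cochaperone of the ER, was at 15.2, 12.6 and 8.30 TPM in control and at 30.4, 25.9 and 25.6 TPM in knockdown. It was higher without overlap, at 1.15 on the log2 scale (SE 0.24), and missed the threshold (limma adjusted p = 0.070). It was called in 7 of 17 alternatives, where its adjusted p ran from 0.002 to 0.273. *DNAJB2*, an HSP40 that steers ubiquitinated clients, was the other member higher without overlap, at 13.7, 20.3 and 17.1 TPM in control and 25.6, 27.2 and 27.4 TPM in knockdown (log2 fold change 0.64, adjusted p = 0.158).

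The cytosolic HSP40 proteins differed among themselves. *DNAJA1*, a main partner of cytosolic HSP70, was at 139, 103 and 115 TPM in control and at 70.0, 63.4 and 59.4 TPM in knockdown, without overlap (log2 fold change -0.87, SE 0.17, limma adjusted p = 0.061). *DNAJB4* was at -0.66 (adjusted p = 0.104), also without overlap. *DNAJB1*, the classical heat-inducible HSP40, was at 159, 159 and 189 TPM in control and at 156, 164 and 157 TPM in knockdown, a log2 fold change of -0.08 that turned above 0 with quantile normalization and with array weights. It overlaps *TECR* on the genome. *DNAJB6*, which holds back aggregation, was at -0.03 and turned above 0 with quantile normalization and median-of-ratios scaling.

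Of the HSP70 class, 0 of 10 tested members were called (limma, with 2 at an unadjusted p under 0.05) and the median was -0.26. *HSPA8* (HSC70), the constitutive cytosolic form, had the highest level of all members, at 2144, 1686 and 1488 TPM in control and at 1799, 1646 and 1576 TPM in knockdown. The groups overlapped (log2 fold change -0.07, 95% interval -0.41 to 0.27), and the value turned above 0 without control replicate 1. *HSPA5* (BiP), the ER form, was at 676, 641 and 575 TPM in control and at 532, 512 and 505 TPM in knockdown, without overlap, at -0.29 on the log2 scale (adjusted p = 0.282). The stress-inducible pair *HSPA1A* and *HSPA1B* was at -0.47 and -0.42, with overlap. Their coding sequences share 1922 of 1926 bases, so reads may be split between them. *HSPA6*, which is hardly expressed without stress, was at 0.35 to 1.11 TPM in the 6 libraries (chosen after its values were seen). *HSPA2*, best known from the testis and chosen in the same way, was lower without overlap (-0.74, adjusted p = 0.205).

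The HSP110 exchange factors *HSPA4*, *HSPH1* and *HSPA4L* were at -0.32, -0.31 and -0.16, all with overlap. Without control replicate 1 *HSPA4* was at -0.057, *HSPH1* at -0.083 and *HSPA4L* at 0.00087. The transcription factors of the heat shock response showed no detected difference. *HSF1* was at 98.9, 106 and 105 TPM in control and at 78.7, 110 and 117 TPM in knockdown, a log2 fold change of -0.04 (95% interval -0.46 to 0.38) that turned above 0 under quantile normalization, array weights and removal of the GC trend. *HSF2* was also at -0.04 (95% interval -0.67 to 0.58). *HSPB1* (HSP27) was the 1 small heat shock protein of 7 that was tested, with overlap at -0.26 (adjusted p = 0.634).

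The mitochondrial chaperonin genes had a median of -0.59. *HSPD1* (HSP60) was at 809, 598 and 578 TPM in control and at 494, 427 and 388 TPM in knockdown (log2 fold change -0.59, SE 0.17, limma adjusted p = 0.145). *HSPE1* (HSP10), its lid, was at 605, 644 and 619 TPM in control and at 469, 436 and 490 TPM in knockdown (log2 fold change -0.42, SE 0.12, limma adjusted p = 0.132). Both were lower without overlap between the groups, as were 13.4% of all genes. On the genome *HSPD1* and *HSPE1* overlap each other on opposite strands, and whether this affects their values was not tested. The readthrough gene *HSPE1-MOB4* was at -1.03 (adjusted p = 0.275), and as it shares exons with *HSPE1* and *MOB4* its value is uncertain. Of 9 other mitochondrial chaperone partners 0 were called (limma, with 0 at an unadjusted p under 0.05), with a median of -0.13. Of the members that share only the letters of the prefix, *HSPBP1*, an HSP70 exchange factor, was at -0.47 (adjusted p = 0.459) and *HSPBAP1* at 0.30 (adjusted p = 0.567), both with overlap.

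Ratios within a library do not depend on its scaling. The following were chosen after the values were seen and are given without a test. *PTGES3* per 100 TPM of *HSP90AA1* and *HSP90AB1* together was 24.2, 21.8 and 16.2 in control and 9.46, 8.13 and 8.39 in knockdown, so p23 mRNA was lower relative to that of its partner. *DNAJB11* per 100 TPM of *HSPA5* was 10.1 ± 0.390 in control and 5.39 ± 0.062 in knockdown (SD, n = 3). *DNAJB9* per 100 TPM of *DNAJB11* was 23.1, 18.7 and 14.4 in control and 105, 94.5 and 94.6 in knockdown. As *DNAJB9* was higher and *DNAJB11* lower, each without overlap, their ratio had to lie apart and adds nothing to their separate values. *DNAJA1* per 100 TPM of *HSPA8* was 6.47, 6.09 and 7.75 in control and 3.89, 3.85 and 3.77 in knockdown, whereas *DNAJB1* per 100 TPM of *HSPA8* was 9.85 ± 2.66 and 9.52 ± 0.745 (SD, n = 3). With overlap, *HSPE1* per 100 TPM of *HSPD1* was 96.5 ± 18.9 in control and 108 ± 16.4 in knockdown. *FKBP5* per 100 TPM of *FKBP4* also overlapped, at 31.4 ± 12.6 and 38.2 ± 13.4. *STIP1* per 100 TPM of *HSP90AA1* and *HSP90AB1* together did not, at 15.8 ± 0.388 and 12.5 ± 0.916.

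**Figure D3:**
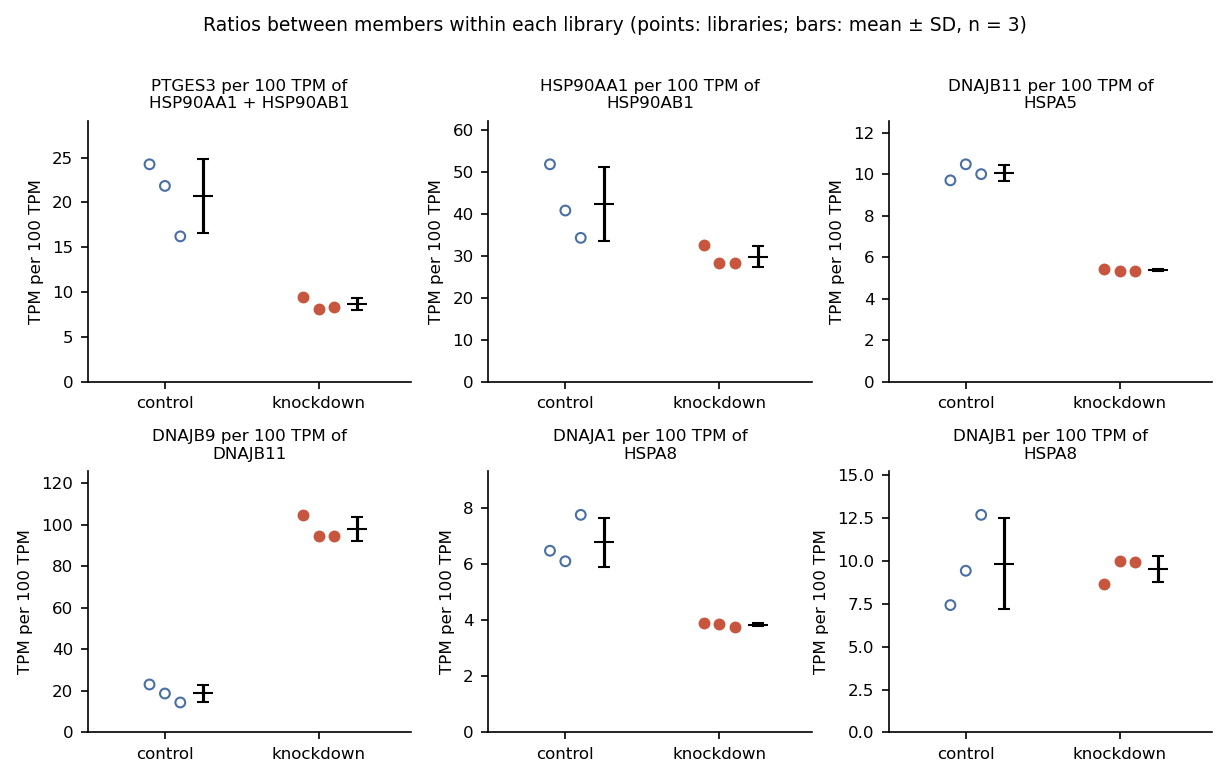
TPM of a member per 100 TPM of its partner in each library, with the mean ± SD of the 3 libraries per group. The ratios shown were chosen after the values were seen. *PTGES3*, *HSP90AA1*, *DNAJB11* and *DNAJA1* are lower relative to their partners and *DNAJB9* per *DNAJB11* is higher, without overlap, while *DNAJB1* per *HSPA8* overlaps. Of the ratios not shown, *HSPE1* per *HSPD1* and *FKBP5* per *FKBP4* overlap, and *STIP1* per *HSP90AA1* and *HSP90AB1* does not.

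The promoters of members that respond to stress are shown because they carry the elements through which HSF1 and the unfolded protein response act. Sequences were taken from RefSeq on GRCh38.p14, from 250 bases before to 50 after the start, and 50 of 56 members matched. The heat shock element of 3 units was searched as GAANNTTCNNGAA and TTCNNGAANNTTC, which are 1 motif read on either strand and contain the 2-unit forms GAANNTTC and TTCNNGAA. It was found in 0.487% of 27305 promoters and in 4 of 50 members, *DNAJA1*, *DNAJB6*, *HSPA6* and *HSPA8*. The ER stress element, CCAAT and CCACG with 9 bases between them, was found in 0.0806% of promoters and in 2 of 50 members, *HSPA5* and *HSP90B1*. The windows follow, with the matches in capitals, for *DNAJA1* (chr9:33025023-33025322, plus strand), *HSPA8* (chr11:123062087-123062386, minus strand) and *HSPA5* (chr9:125241294-125241593, minus strand).
DNAJA1: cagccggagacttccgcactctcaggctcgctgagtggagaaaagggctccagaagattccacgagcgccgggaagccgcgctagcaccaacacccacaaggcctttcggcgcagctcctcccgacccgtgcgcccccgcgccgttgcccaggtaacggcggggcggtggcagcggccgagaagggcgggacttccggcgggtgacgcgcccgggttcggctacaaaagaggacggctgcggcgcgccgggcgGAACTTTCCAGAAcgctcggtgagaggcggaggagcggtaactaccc
HSPA8: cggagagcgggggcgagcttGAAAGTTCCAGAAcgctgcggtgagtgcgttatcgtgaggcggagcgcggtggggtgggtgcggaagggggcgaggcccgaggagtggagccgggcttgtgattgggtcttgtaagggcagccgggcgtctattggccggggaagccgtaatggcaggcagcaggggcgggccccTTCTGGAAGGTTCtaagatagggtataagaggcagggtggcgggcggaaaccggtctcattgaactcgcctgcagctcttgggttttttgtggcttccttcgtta
HSPA5: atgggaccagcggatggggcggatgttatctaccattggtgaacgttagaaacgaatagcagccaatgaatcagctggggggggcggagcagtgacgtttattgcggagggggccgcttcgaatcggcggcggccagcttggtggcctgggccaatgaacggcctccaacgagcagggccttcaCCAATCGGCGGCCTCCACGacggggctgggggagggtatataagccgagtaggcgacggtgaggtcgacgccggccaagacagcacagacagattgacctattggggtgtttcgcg

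The match begins 3 bases after the start in *DNAJA1*, 230 and 55 bases before it in *HSPA8* and 66 bases before it in *HSPA5*. Members with the 3-unit element did not share a value: *DNAJA1* was at -0.87, *HSPA8* at -0.07 and *DNAJB6* at -0.03 on the log2 scale. The 2-unit forms were in 13.7% of promoters and in 13 of 50 members. *PTGES3*, *DNAJB11*, *DNAJB9* and *STIP1* had no match to any of these motifs in this window. The same held for *DNAJB1*, *HSP90AA1*, *HSPH1*, *HSPD1*, *HSPE1* and *BAG3*, among others, so a missing match does not set a member apart.

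A 7-mer in the 3′UTR is shown because 4 of the 5 members with the lowest log2 fold changes carry it, all but *HSPE1-MOB4*. GAGTGAA, on the transcript strand, came from an earlier scan of these libraries, so the values below are a description. In GENCODE canonical transcripts (hg38) it was in the 3′UTR of 12.5% of 11539 tested protein-coding genes and of 7 of 44 members (15.9%). The site with 8 bases on each side, or fewer at the start of the 3′UTR, is given for *PTGES3* (chr12:56663739-56663745, minus strand), *DNAJB11* (chr3:186585409-186585415, plus strand), *FKBP4* (chr12:2803347-2803353 and chr12:2805103-2805109, plus strand) and *DNAJA1* (chr9:33038954-33038960, plus strand), with the 7-mer in capitals.
PTGES3: tggcaaatGAGTGAAaaatgttt
DNAJB11: GAGTGAAtaaaattg
FKBP4 first: agaattttGAGTGAAttagacct
FKBP4 second: catcacatGAGTGAAactgaatc
DNAJA1: tagtgaatGAGTGAAggactgta

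The median log2 fold change was -0.87 for the 7 members with the 7-mer and -0.26 for those without. It was -0.14 and -0.05 for all tested protein-coding genes. As the 7-mer was picked from these same libraries, these differences cannot serve as a test of it. The 3′UTRs with it were longer, with medians of 2165 and 537 bases among members. *HSPA9*, at -0.23, *DNAJB14*, at -0.40, and *HSPA12A*, at 0.22, also carry it (named after their values were seen). In *RAB30-DT* 11 of 19 annotated transcripts hold the 7-mer. Transcripts of a gene can share exons, so these need not be separate sites. No share over the transcripts of other genes was computed to set beside this count. The shRNA sequence was not used here, and the part of the 7-mer in these values was not tested.

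**Figure D4:**
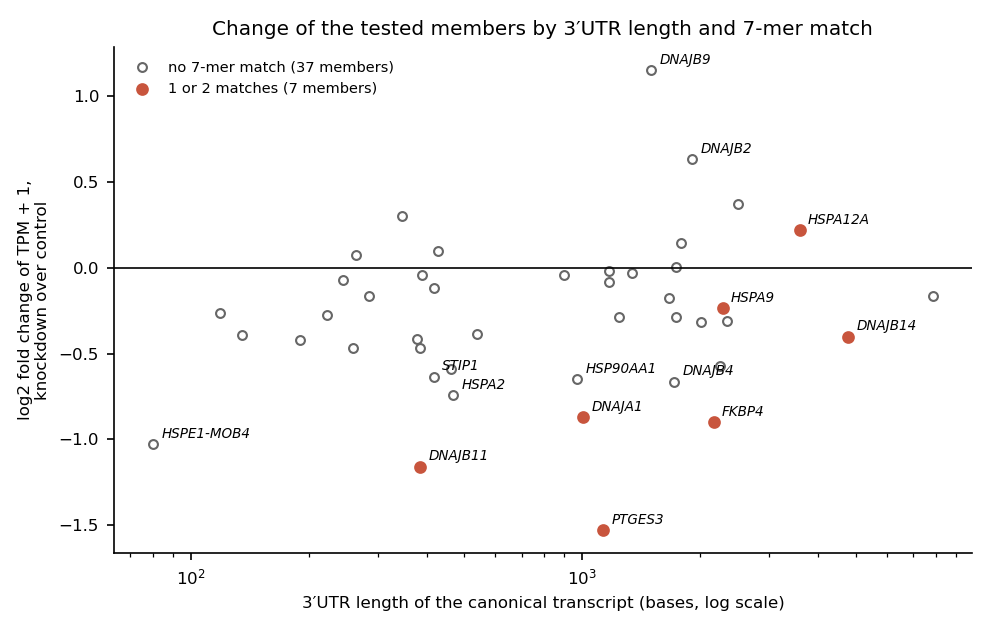
Log2 fold change of TPM + 1 (knockdown over control) against 3′UTR length (bases, log axis) for the 44 tested members. Filled circles are the 7 members with the 7-mer, of which *PTGES3* is lowest at -1.53 and *HSPA12A* highest at 0.22.

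Genes of the same pathways were read from lists chosen with earlier results known. Of 14 subunits of TRiC and prefoldin, which fold actin and tubulin, 0 were called (limma, with 7 at an unadjusted p under 0.05), the median was -0.35, and 8 were lower and 1 higher without overlap, beside 13.4% and 9.89% of all genes. At an unadjusted p under 0.05 the share of all genes was 16.8%. *CCT5* was at -0.63 (adjusted p = 0.095) and *PFDN5* at 0.50 (adjusted p = 0.099). Of 25 other partners of HSP70 and HSP90 0 were called (limma, with 5 at an unadjusted p under 0.05), with a median of -0.07. Of 14 ER chaperone partners 0 were called (limma, with 0 higher and 4 lower at an unadjusted p under 0.05), with a median of -0.19. Of 6 tested heat shock genes under other names 0 were called (limma, with 2 at an unadjusted p under 0.05), and the ubiquitin gene *UBB* was at -0.46 (adjusted p = 0.082). Of 8 tested HIF-linked genes 4 were called higher, *BNIP3*, *TXNIP*, *PDK1* and *PFKFB4*, beside 0.371% of all genes. *ADM* was at -0.56 with overlap, at 68.1, 87.2 and 301 TPM in the control libraries. *CA9* and *EGLN3*, at 0 to 0.1 TPM, were not tested. The list summed to 268 to 495 TPM in control, with *ADM* in control replicate 3 a large part of the highest sum, and to 669 to 908 TPM in knockdown. Its part in the members' values was not tested.

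The members also varied between libraries of 1 group. Within control, 24 of 44 members were highest in replicate 1, with a median GC content of 42.1%, and within knockdown 25 were highest in replicate 1, with 42.3%. The median GC content was 46.4% over the tested members and 48.0% over all genes tested. The share of all genes highest in replicate 1 was not computed, so these counts cannot be read as particular to the members.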

How the data were processed

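RNA–Seq was carried out on 6 SK-Hep1 libraries, 3 per group, grouped by their titles. The authors deposited gene-level TPM; their methods name fastp, STAR and RSEM, whereas the submitters' processing notes name HISAT2 (2.0.5) and hg38. TPM hold no read number, so the depth is unknown and precision rests on 3 libraries per group, which may be technical replicates. All 62700 gene identifiers matched GENCODE v44.

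Values were analysed as log2(TPM + 1), so that changes of low genes are understated, with limma 3.58.1 (lmFit, eBayes with trend, 2-sided, R 4.3.3) for genes averaging 1 TPM or more, Benjamini–Hochberg adjusted over all of them and called at 0.05. The fit was tested on simulated data. Its limit on false calls was missed by 2 earlier versions of the test and was redefined after their results were seen, with the fit unchanged. The share of false calls in these simulations lay near or somewhat above the nominal level, which bears on members called close to the threshold. The members and lists were chosen with earlier results of these data known. Genes named were *RAB30-DT*, called members, *HSF1*, *HSF2*, the cochaperones, the most abundant of each class and those furthest from 0 without overlap. Others are said to be chosen after their values were seen. Alternatives were a pseudocount of 0.1 or 5, no filter, a 5 TPM filter, median-of-ratios or quantile scaling, eBayes without trend, array weights, removal of the GC trend (loess, span 0.3), a replicate block, and each library left out. After the group mean of each gene was subtracted, same-numbered control and knockdown libraries correlated at 0.410, 0.0359 and 0.279. They were not taken as pairs in the main fit.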

Additional observations from a re-analysis of the deposited data

How the results depend on the processing

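Members called (2 of 44) and all genes called (146) depended on the setting. Without a filter on low values they were 0 and 13 (4 higher, 9 lower), with array weights 19 (2 higher, 17 lower) and 3218, with the GC trend removed 12 (2 higher, 10 lower) and 1160, and leaving out 1 library gave 0 to 5 members (0 to 1 higher, 0 to 4 lower) and 12 to 489 genes. The array weights were 3.00 for control replicate 2 and 4.39 for knockdown replicate 2. Those of the other libraries were 0.316 to 0.948, so this setting rests mostly on 1 library per group. Median-of-ratios scaling and quantile normalization added 1 member higher, *DNAJB9*, and split all genes called into 68 higher and 68 lower and into 78 and 83. With a replicate block 10 members (1 higher, 9 lower) and 861 genes were called. With the block and the GC trend removed, 12 members (2 higher, 10 lower) and 1109 genes were called. In their labels same-numbered libraries share only a number. Spearman's rho of a library's deviation from the gene means with GC content was -0.61 and -0.52 in replicate 1 of control and knockdown. It was 0.29 and 0.016 in replicate 2, and 0.49 and 0.34 in replicate 3. Whether these libraries are pairs was not tested. *PTGES3* and *DNAJB11* were called in 12 of 17 alternatives each. The median of the members stayed below that of all genes in every alternative, by -0.15 to -0.28.

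Members near 0 changed sign, and the cause was not tested. Quantile normalization gave *DNAJB6* 0.14, *DNAJB1* 0.086, *CDC37* 0.061 and *HSF1* 0.10. Median-of-ratios scaling gave *DNAJB6* 0.0074. Array weights gave *DNAJB1* 0.0041 and *HSF1* 0.019. Removal of the GC trend, with or without the replicate block, gave *HSF1* 0.080. With 1 library left out, the ranges were *HSPA4L* -0.31 to 0.00087, *DNAJB6* -0.15 to 0.052, *HSPA8* -0.19 to 0.077, *HSP90B1* -0.20 to 0.35, *CDC37* -0.33 to 0.14, *HSF1* -0.15 to 0.13, *HSF2* -0.27 to 0.21 and *HSPB1* -0.42 to 0.0032. Depth could not be assessed from TPM.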
